A study of Mus musculus with 9 samples.

Results

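Cytosolic ribosomal proteins are the proteins that, with ribosomal RNA, build the large and the small subunit of the ribosome. Their genes were taken from an array study of mouse hearts by symbol: Rpl or Rps followed by a digit, or Rpsa, leaving out symbols that start with Rps6k (kinases) and symbols that contain -ps. Only probe sets annotated with 1 symbol were used, and the probe set with the highest mean signal stood for each gene. The rule gave 66 genes of 22180 genes with such a probe set, and it used no difference between hearts. Of the 66, 32 code for proteins of the large subunit and 23 for proteins of the small subunit. Another 9 are paralogs (Rpl3l, Rpl6l, Rpl7l1, Rpl10l, Rpl22l1, Rpl32l, Rpl39l, Rps4l and Rps27l), of which the reference gene table lists 2, Rpl6l and Rps4l, as pseudogenes. The last 2 carry a ribosomal name but are no ribosomal proteins: Rps19bp1 codes for a protein that binds Rps19, and Rps23rg1 is named after Rps23.

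The hearts came from 2 month old mice of 3 genotypes with 3 hearts each: Col4a3-/-OPN-/-, Col4a3-/- and wild type. Col4a3-/- mice lack a chain of the collagen IV of basement membranes and are a model of Alport syndrome, and Col4a3-/-OPN-/- mice lack osteopontin as well, so that both mutant genotypes share the Col4a3 loss. The study's title links this model to heart failure with a preserved ejection fraction, and links that to osteopontin. The labels give neither sex nor strain, and there was no group without osteopontin alone. Each heart was 1 array, and nothing in the labels describes pooling.

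Ribosomal proteins are made in nearly equal numbers, because each ribosome holds mostly 1 copy of each, and their messenger RNAs are among the most abundant of the cell. In vertebrates these messengers typically begin with a C followed by a run of pyrimidines, the 5′ terminal oligopyrimidine tract, through which mTOR signalling and the protein LARP1 control their translation. In heart muscle, ribosome production is known to go up with growth of the myocytes, and striated muscle also makes Rpl3l, a paralog of the large subunit protein Rpl3. An array measures messenger levels and gives no view of translation or of ribosome number. In whole hearts, more cells of a type and more messenger per cell cannot be told apart.

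The start sites of the members were searched for such a run near the start, which does not place it at the first base of the messenger. Promoters were listed by RefSeq (GRCm38.p6) for 52 of the 66 genes, with 61 start sites. A run of a C followed by at least 6 further C or T on the sense strand, within the 15 bases before and the 15 bases from the start on, was found at 28 of these (45.9%), and not at the others, against 14.2% of 32851 listed promoters of all genes. The letters CCGGAA, the core bound by ETS family factors, were found on either strand within 300 bases around the start (250 before it and 50 after) in 29 member promoters (47.5%), against 14.9% of all. A match is only a match of letters, and no match says only that the letters are not in the window. The windows below belong to members whose values are given further on, and capitals mark the run.
Rpl35 (chr2:39005117-39005146, minus strand): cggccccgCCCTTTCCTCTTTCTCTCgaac
Rpl7a (chr2:26910792-26910821, plus strand): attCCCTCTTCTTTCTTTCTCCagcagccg
Rps6 (chr4:86857353-86857382, minus strand): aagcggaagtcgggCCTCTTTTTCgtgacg
Rpl28 (chr7:4792950-4792979, plus strand): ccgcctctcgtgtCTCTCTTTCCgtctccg
Rps12 (chr10:23787195-23787224, minus strand): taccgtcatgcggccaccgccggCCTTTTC
Rps3a1 (chr3:86142654-86142683, minus strand): ttaaagccggaagggcgaaagagcaagggt
Rps13 (chr7:116334176-116334205, minus strand): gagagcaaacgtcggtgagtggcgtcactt
Rpl3l (chr17:24727811-24727840, plus strand, the first of its listed starts): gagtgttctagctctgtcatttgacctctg
Rpl35, Rpl7a, Rps6, Rpl28 and Rps12 hold a run and Rps3a1, Rps13 and Rpl3l do not, although Rps3a1 has CCGGAA before its listed start.

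Signals are log2 values after RMA, and a probe set was tested if its mean exceeded 5.21, the median of the 33793 on the array. Of the 66 genes, 54 passed. The other 12 lay at means of up to 5.20 and were not tested: Rpl10l, Rpl11, Rpl17, Rpl22l1, Rpl27a, Rpl30, Rpl32l, Rpl37, Rpl39l, Rpl6, Rps15 and Rps16. For 8 of them, which are subunit proteins every cell needs, a dim probe set does not show a low messenger level. Rps16 was just under the limit, and Rps20 (5.22) and Rps14 and Rpl39 (5.27 each) were just above it. The brightest members were Rpl21 (mean log2 signal over the 9 hearts 12.19), Rpl29 (11.89), Rpl28 (11.87), Rps6 (11.69), whose product is the substrate of the S6 kinases, and Rpl41 (11.57), the smallest ribosomal protein. Levels of different probe sets depend on their probes, so that this order is no order of messenger amounts. Ribosomal protein genes have many near-identical processed pseudogenes, so probes may read several copies; values of single members are uncertain for that reason.

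The hearts were compared as libraries first. Pearson's r between arrays was 0.936 to 0.986, and array medians were alike. Array weights, used in 1 alternative fit, are lower for arrays that deviate more from their group. They were lowest in Col4a3-/- hearts 3 (0.29) and 1 (0.46), against 1.15 to 1.76 in the other hearts. All 12 cardiomyocyte markers (Myh6, Tnnt2 and others) passed the limit, with a summed linear signal of 57122 to 59499 in Col4a3-/-OPN-/-, 51297 to 58316 in Col4a3-/- and 55936 to 58365 in wild type hearts. The Col4a3 probe set was too dim to check the labels (4.87 to 5.26 in Col4a3-/-OPN-/-, 4.96 to 5.27 in Col4a3-/- and 5.07 to 5.52 in wild type hearts), and whether it lies in the deleted region is unknown here. The osteopontin gene was not analysed here. Xist, the RNA that silences 1 X chromosome of female cells, was high in Col4a3-/-OPN-/- heart 2 (8.56) and Col4a3-/- hearts 1 (7.59) and 3 (8.50). It lay at 4.52 to 4.77 in the other 6. The Y-linked gene Eif2s3y was low in the same 3 hearts (4.75, 4.60 and 4.67, in this order). It lay at 7.998 to 8.39 in the other 6. By both genes these 3 hearts were female and the other 6 male, so the genotypes were not alike in sex. All wild type hearts were male, but of the Col4a3-/- hearts only heart 2 was. Col4a3-/- and wild type hearts thus differed in sex as well as in genotype. Scgb1a1, a gene of airway epithelium, was high in Col4a3-/- heart 2 (12.21) and Col4a3-/-OPN-/- hearts 1 (9.81) and 3 (9.52). It lay at 4.54 to 6.10 in the other hearts. Ucp1, a gene of brown fat, was also highest in Col4a3-/- heart 2 (11.06), followed by wild type heart 2 (9.20). Col4a3-/- heart 3 had high signals of Sele (8.26) and Saa3 (9.10), both genes of inflammation. The labels do not say that the hearts of a genotype came from separate litters or cages.

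The members' signals varied together from heart to heart. Each member's signal was set against its own mean over the 9 hearts, and the median over the 54 members was taken in each heart. This median was −0.19, −0.03 and −0.04 log2 in Col4a3-/-OPN-/- hearts 1 to 3, 0.23, −0.03 and 0.30 in Col4a3-/- hearts 1 to 3, and −0.01, −0.00 and −0.14 in wild type hearts 1 to 3. Col4a3-/- hearts 1 and 3 were above all others, while Col4a3-/- heart 2 lay inside the range of the wild type and Col4a3-/-OPN-/- hearts. The mean over hearts was −0.09 ± 0.09 in Col4a3-/-OPN-/-, 0.17 ± 0.17 in Col4a3-/- and −0.05 ± 0.08 in wild type (SD, n = 3 each). Over all tested probe sets the same median stayed between −0.02 and 0.04 in each of the 9 hearts.

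**Figure D1:**
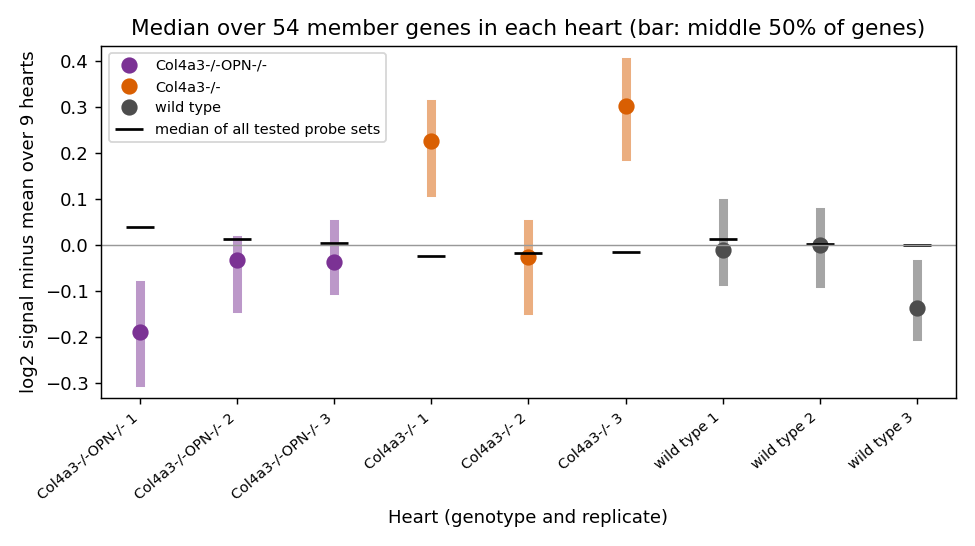
Median over the 54 tested members of the log2 signal minus each gene's mean over 9 hearts (y axis), for each heart (x axis); points are medians, thick bars the interquartile range over members, and black dashes the median of all tested probe sets. Col4a3-/- hearts 1 (0.23) and 3 (0.30) stand above the other 7 hearts, and the dashes stay near 0.

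Single members followed the same 2 hearts. Col4a3-/- heart 3 was the highest of the 9 hearts for 36 of 54 members and Col4a3-/- heart 1 for 11, and the 2 were the highest pair for 35. Col4a3-/-OPN-/- heart 1 was the lowest heart for 25 members and wild type heart 3 for 9. Large and small subunit genes did this alike: in Col4a3-/- heart 3 the median was 0.32 for large and 0.31 for small subunit genes, and in Col4a3-/-OPN-/- heart 1 it was −0.22 and −0.14. The median SD of a member within a genotype was 0.136 in Col4a3-/-OPN-/-, 0.182 in Col4a3-/- and 0.10 in wild type hearts, and over all tested probe sets it was 0.135, 0.211 and 0.121 in the same order of genotypes.

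Other measures moved with these hearts. The 2 hearts highest in the members were the 2 Col4a3-/- hearts with high Xist, and they were low in the sum of the 6 atrial cardiomyocyte markers. This summed linear signal was 12698 to 14228 in Col4a3-/-OPN-/- hearts, 7413, 13663 and 8344 in Col4a3-/- hearts 1 to 3, and 14769 to 16039 in wild type hearts. Bmp10, a growth factor made by atrial myocytes, was at 9.38, 9.63 and 9.59 in Col4a3-/-OPN-/- hearts, 5.72, 9.17 and 7.40 in Col4a3-/- hearts, and 9.75, 9.78 and 9.86 in wild type hearts. The 9 smooth muscle and pericyte markers summed to 5553 to 5943 in Col4a3-/-OPN-/-, 3550 to 4837 in Col4a3-/- and 6208 to 6748 in wild type hearts, so here all 3 Col4a3-/- hearts were low. The 9 macrophage markers summed to 2145 to 2948, 2584 to 3631 and 2312 to 2596 in the same order of genotypes. The highest value was in Col4a3-/- heart 2, which was not high in the members. By gene, the median difference of these markers was 0.22 for Col4a3-/- minus wild type (6 of 9 above 0). It was −0.19 for Col4a3-/-OPN-/- minus Col4a3-/- (6 of 9 below 0). Of 11 lymphocyte markers 10 had a probe set and 3 passed the limit. The sum over the 10, which holds the dim ones too, was 350 to 403 in Col4a3-/-OPN-/-, 353 to 375 in Col4a3-/- and 363 to 385 in wild type hearts, with overlap. The part of atrial, smooth muscle or macrophage content in the members' values was not tested, and differences within hearts of like Xist are given below.

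**Figure D2:**
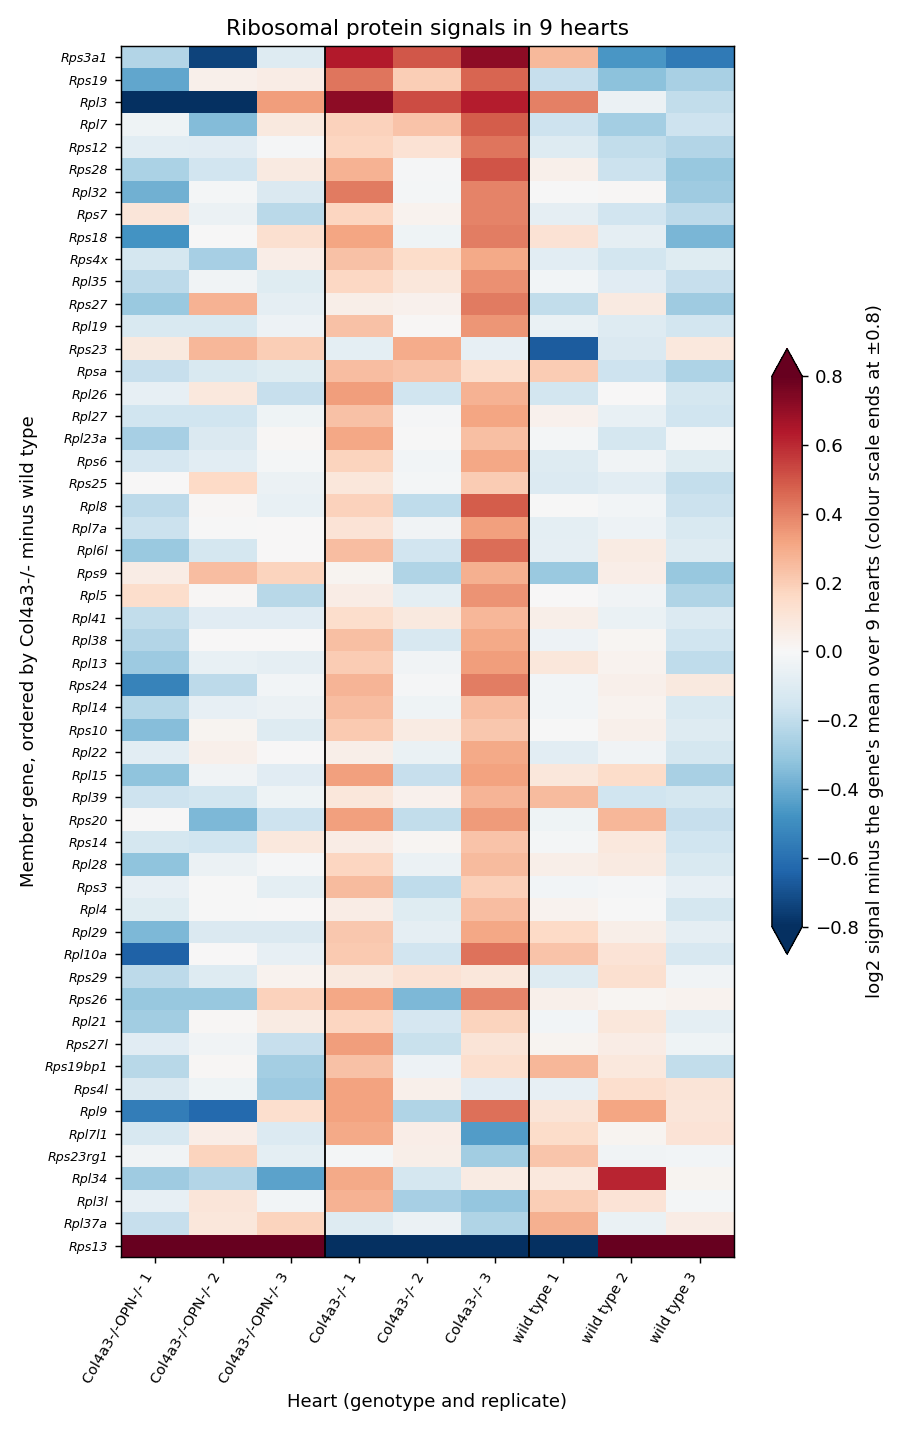
Log2 signal minus the gene's mean over 9 hearts (colour) for the 54 tested members (rows, ordered by the Col4a3-/- minus wild type difference) in each heart (columns, by genotype and replicate). The columns of Col4a3-/- hearts 1 and 3 are red over most rows, that of Col4a3-/-OPN-/- heart 1 is blue over most, and Rps13 at the bottom is blue in all 3 Col4a3-/- hearts and wild type heart 1.

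The first comparison set Col4a3-/- hearts against wild type hearts. Ribosomal protein genes leaned towards higher signals in Col4a3-/- hearts, by small amounts: the median log2 difference of the 54 members was 0.20 (1.15-fold), against −0.02 over all 13650 tested probe sets, and 48 of 54 differences were above 0 (45% of all probe sets were). No member passed the test at an adjusted p under 0.05 (limma, Benjamini-Hochberg), nor did any other probe set (0% called), and the smallest adjusted p of a member was 0.427. At an unadjusted p under 0.05, 14 members differed, 25.9% against 8.35% of all probe sets. Of these, 13 were higher in Col4a3-/- hearts (24.1%, against 2.39% of all) and 1, Rps13, was lower (5.96% of all). For 15 members all 3 Col4a3-/- hearts lay above all 3 wild type hearts, which held for 4.58% of all probe sets, and for 0 members they all lay below (7.9% of all).

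The median difference was 0.20 for the 26 tested large subunit genes and 0.23 for the 21 small subunit genes, and 0.03 for the 5 tested paralogs. Among the 28 members with a mean above 9 it was 0.22, with 27 of 28 above 0, against −0.04 for the 1231 tested probe sets above that level. Among the 26 dimmer members it was 0.15. The values rest on single hearts: the 14 members became 9 without Col4a3-/- heart 3, 6 without wild type heart 3 and 25 without Col4a3-/- heart 2. Between Col4a3-/- heart 2 and the wild type hearts, which all had low Xist, the members' median difference was 0.01, with 28 of 54 above 0. Col4a3-/- heart 2 was also the heart with the highest Scgb1a1 and Ucp1. With the mean Y-linked signal as a covariate the members' median difference was 0.06 and 6 members were at an unadjusted p under 0.05. For counts in subsets of hearts or with the covariate, here and below, the share over all tested probe sets is not given. Those counts therefore have no background to be read against.

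Rps3a1, a small subunit gene on chromosome 3, had the highest difference of all members. Its signal was 10.66, 10.52 and 10.74 in Col4a3-/- hearts against 10.28, 9.56 and 9.46 in wild type hearts. All Col4a3-/- hearts were higher than all wild type hearts, of which heart 1 was the closest. The log2 difference was 0.87 (SE 0.22, 1.83-fold), with an unadjusted p of 0.00239 and an adjusted p of 0.427 (limma).

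Rps19, whose protein is needed to process the RNA of the small subunit and whose human gene is mutated in Diamond-Blackfan anaemia, had 8.78, 8.55 and 8.82 in Col4a3-/- hearts against 8.17, 8.02 and 8.09 in wild type hearts. Here too no heart of one genotype reached the other, and the difference was 0.62 (SE 0.15, 1.54-fold, adjusted p 0.427, limma). Rps12, also of the small subunit, had 10.54, 10.48 and 10.79 in Col4a3-/- hearts against 10.26, 10.17 and 10.13 in wild type hearts. Its groups did not overlap, with a difference of 0.42 (SE 0.11, adjusted p 0.427, limma).

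Rpl7, a large subunit gene, had 9.67, 9.71 and 9.97 in Col4a3-/- hearts against 9.32, 9.21 and 9.32 in wild type hearts. Unlike most members it was about as high in Col4a3-/- heart 2 as in heart 1, and the difference was 0.50 (SE 0.14, adjusted p 0.45, limma). Rps4x, an X-linked small subunit gene, had 10.06, 9.98 and 10.13 in Col4a3-/- hearts against 9.74, 9.69 and 9.73 in wild type hearts, without overlap and with a difference of 0.34 (unadjusted p 0.0125, adjusted p 0.496, limma). Col4a3-/- heart 2, which had low Xist, was also above every wild type heart. The other X-linked member, Rpl39, had a difference of 0.15 (unadjusted p 0.249).

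Lower values in Col4a3-/- hearts were found for 6 members (11.1%, against 55% of all probe sets): Rps13 (−1.71), Rpl37a (−0.23), Rpl3l (−0.20), Rpl34 (−0.16), Rps23rg1 (−0.14) and Rpl7l1 (−0.12). Only Rps13 of these was at an unadjusted p under 0.05, and 3 of the 6 are paralogs or no ribosomal protein. The muscle paralog Rpl3l had 9.96, 9.41 and 9.37 in Col4a3-/- hearts against 9.88, 9.79 and 9.66 in wild type hearts. Col4a3-/- heart 1 was the highest of these and hearts 2 and 3 the lowest, so the groups overlapped (unadjusted p 0.236).

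**Figure D3:**
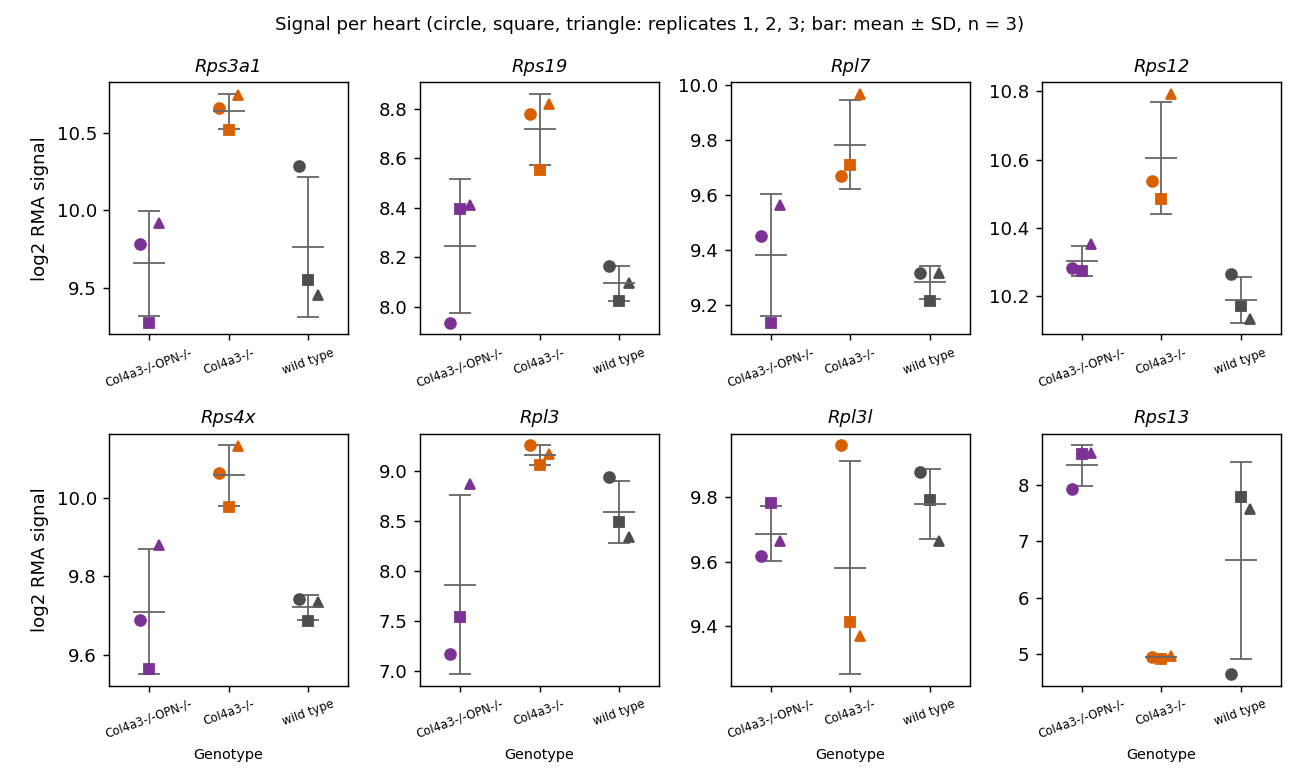
Log2 RMA signal (y axes) of 8 members in Col4a3-/-OPN-/-, Col4a3-/- and wild type hearts (x axes); circle, square and triangle are replicates 1, 2 and 3, and bars the mean ± SD (n = 3). Rps3a1, Rps19, Rpl7, Rps12 and Rps4x are highest in Col4a3-/- hearts, Rpl3l overlaps between genotypes, and Rps13 is near 4.95 in every Col4a3-/- heart and at 4.65 in wild type heart 1.

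The second comparison set Col4a3-/-OPN-/- hearts against Col4a3-/- hearts. It shares the Col4a3-/- hearts with the first, so opposite signs in the 2 comparisons are no second observation. Ribosomal protein genes leaned towards lower signals in the hearts without osteopontin: the median difference was −0.26 (0.835-fold), against 0.04 over all tested probe sets, and 48 of 54 differences were below 0 (42.3% of all). No member had an adjusted p under 0.05, and 6 probe sets in all did (0.044%). The smallest adjusted p of a member was 0.124, that of Rps13 (limma). At an unadjusted p under 0.05 there were 23 members, 42.6% against 13.6% of all. Of these, 22 were lower in Col4a3-/-OPN-/- hearts (40.7%, against 5.03% of all) and 1, Rps13, was higher (8.58% of all). For 20 members all 3 Col4a3-/-OPN-/- hearts lay below all 3 Col4a3-/- hearts (6.48% of all), and for 1 above (10.1% of all).

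The median was −0.29 for large and −0.25 for small subunit genes and −0.19 for the 5 paralogs. In members brighter than 9 it was −0.30, with 27 of 28 below 0, against 0.04 over all probe sets of that brightness, and in the dimmer members −0.20. The 23 members became 14 without Col4a3-/- heart 1, 13 without Col4a3-/- heart 3, 37 without Col4a3-/- heart 2, 11 without Col4a3-/-OPN-/- heart 1 and 15 without Col4a3-/-OPN-/- heart 2. Among hearts with high Xist (Col4a3-/-OPN-/- heart 2 minus the mean of Col4a3-/- hearts 1 and 3) the median difference was −0.31, with 45 of 54 below 0. Among hearts with low Xist (Col4a3-/-OPN-/- hearts 1 and 3 minus Col4a3-/- heart 2) it was −0.10, with 37 of 54 below 0. The hearts of this last contrast are those with high Scgb1a1, and what that adds to the members' values was not tested.

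**Figure D4:**
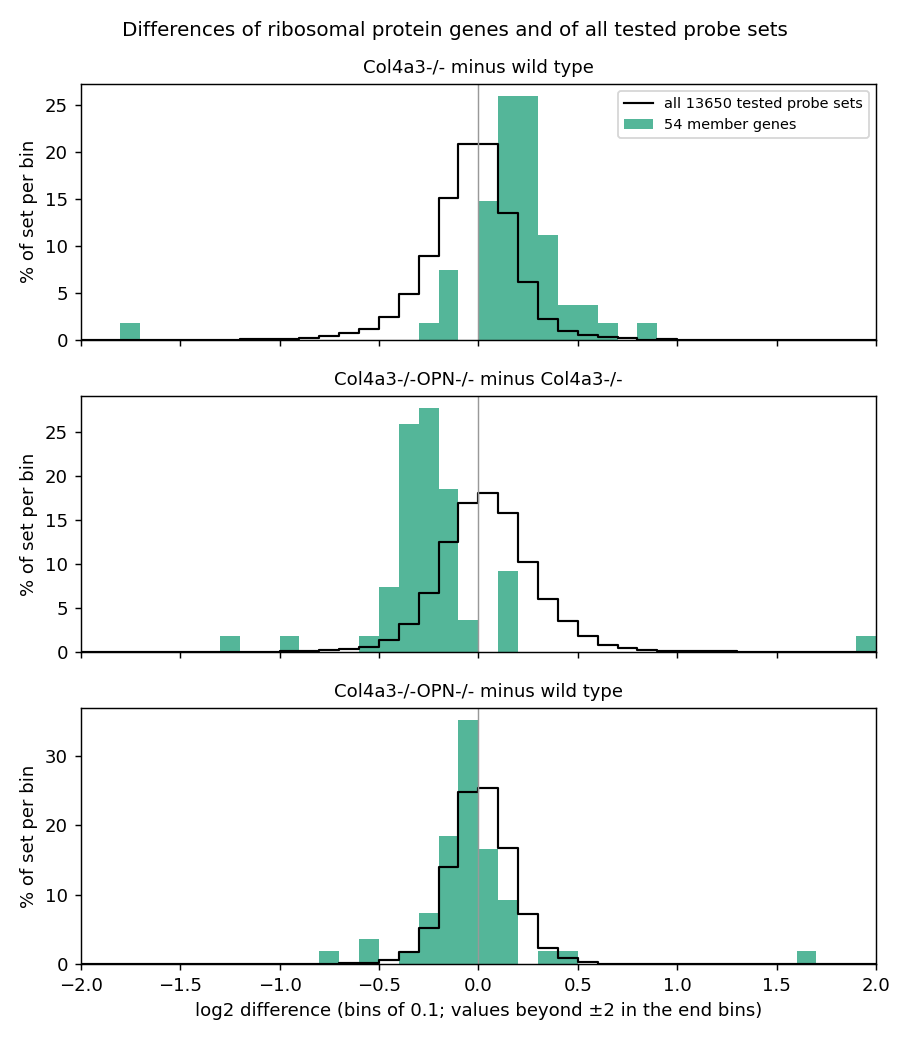
Share of each set per bin (y axes) by log2 difference (x axis) for the 54 members (bars) and all 13650 tested probe sets (line) in the 3 comparisons. The bars sit right of the line for Col4a3-/- minus wild type (medians 0.20 and −0.02), left of it for Col4a3-/-OPN-/- minus Col4a3-/- (−0.26 and 0.04), and close to it for Col4a3-/-OPN-/- minus wild type (−0.06 and 0.01).

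Rpl3, whose protein reaches towards the peptidyl transferase centre of the large subunit, had the lowest difference. Its signal was 7.17, 7.54 and 8.87 in Col4a3-/-OPN-/- hearts against 9.26, 9.06 and 9.17 in Col4a3-/- hearts. The groups did not overlap, but Col4a3-/-OPN-/- heart 3 lay close to the Col4a3-/- hearts. The difference was −1.30 (SE 0.35, 0.407-fold, unadjusted p 0.00361, adjusted p 0.196, limma). With each heart left out in turn it was −1.80 to −0.95. The −1.80 (adjusted p 0.0337, limma) came from leaving out Col4a3-/-OPN-/- heart 3, the heart that goes least with the difference. A dimmer probe set of Rpl3 gave 0.14 for the same comparison, so the 2 disagree in sign. The paralog Rpl3l differed by 0.11 (unadjusted p 0.516).

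Rps3a1 had 9.79, 9.28 and 9.92 in Col4a3-/-OPN-/- hearts against 10.66, 10.52 and 10.74 in Col4a3-/- hearts. The groups lay well apart, with a difference of −0.98 (SE 0.22, 0.508-fold, unadjusted p 0.00109, adjusted p 0.156, limma). Rps24, another small subunit gene tied to Diamond-Blackfan anaemia in humans, had 9.01, 9.33 and 9.52 in Col4a3-/-OPN-/- hearts against 9.81, 9.53 and 9.95 in Col4a3-/- hearts. The highest of the first and the lowest of the second were almost level, and the difference was −0.48 (SE 0.15, adjusted p 0.257, limma).

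Rpl41 had 11.37, 11.48 and 11.48 in Col4a3-/-OPN-/- hearts against 11.71, 11.65 and 11.84 in Col4a3-/- hearts. Its difference was small but its hearts were even (−0.29, SE 0.09, unadjusted p 0.00688, adjusted p 0.236, limma). Rps19 differed by −0.47 (adjusted p 0.265), Rpl7 by −0.40 (0.286), Rps4x by −0.35 (0.262) and Rps12 by −0.30 (0.296), in each case with no overlap between the genotypes (limma). Higher values in Col4a3-/-OPN-/- hearts were found for 6 members (57.7% of all probe sets were above 0), Rps13 and, by 0.16 or less and each at an unadjusted p above 0.05, Rpl37a, Rps9, Rps23, Rps23rg1 and Rpl3l.

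Rps13, a small subunit gene on chromosome 7, went against the other members with the probe set used here. Its probe set (17493182) had 7.92, 8.54 and 8.55 in Col4a3-/-OPN-/- hearts, 4.95, 4.93 and 4.98 in Col4a3-/- hearts, and 4.65, 7.77 and 7.56 in wild type hearts. All Col4a3-/- hearts and wild type heart 1 were below the limit for testing, and the other 5 hearts were far above it, with nothing between. The fitted log2 difference was 3.39 for Col4a3-/-OPN-/- minus Col4a3-/- (SE 0.63, unadjusted p 0.000251, adjusted p 0.124) and −1.71 for Col4a3-/- minus wild type (adjusted p 0.51, limma). The low values are at the level of dim probe sets, so no fold is given. These fitted values give the direction for this probe set but not the size. A probe set annotated with Rps13, a pseudogene of it and a predicted gene went the other way. It was at −4.23 for Col4a3-/-OPN-/- minus Col4a3-/- and is described at the end. The direction for the gene Rps13 is therefore not settled. This probe set passed the limit for testing only through the hearts where it is high, so its p-values are no support for a difference. They also hung on wild type heart 1. Without that heart the adjusted p was 8.03e-05 for Col4a3-/-OPN-/- minus Col4a3-/- and 0.00189 for Col4a3-/- minus wild type (−2.72, limma). With only the 6 arrays compared it was 0.00055 for Col4a3-/-OPN-/- minus Col4a3-/-.

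The third comparison set Col4a3-/-OPN-/- hearts against wild type hearts, and the members' differences were small, with more of them below 0 than above. The median difference was −0.06, against 0.01 over all tested probe sets, with 37 of 54 below 0 (68.5%, against 46.9% of all). No member and no probe set had an adjusted p under 0.05 (0% called, limma; smallest adjusted p of a member 0.999). At an unadjusted p under 0.05 there were 4 members, 7.41% against 3.68% of all: Rps13 (1.68) and Rps23 (0.41), whose protein sits at the decoding centre, were higher (1.89% of all), and Rpl34 (−0.55) and Rpl9 (−0.52) lower (1.79% of all). Among hearts with low Xist (Col4a3-/-OPN-/- hearts 1 and 3 minus the wild type hearts) the median difference was −0.07, with 39 of 54 below 0. The 4 members became 2 without wild type heart 1, 2 without Col4a3-/-OPN-/- heart 1 and 1 without Col4a3-/-OPN-/- heart 2. Groups did not overlap for 7 members (13.2% of all), with Rps12, Rps13, Rps25 and Rps9 higher (7.55% of all) and Rps24, Rpl34 and Rpl29 lower (5.65% of all).

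Rpl34 had 6.18, 6.24 and 6.04 in Col4a3-/-OPN-/- hearts against 6.55, 7.08 and 6.49 in wild type hearts. The groups did not overlap, and wild type heart 2 was the highest (SE 0.18, unadjusted p 0.00992). Rpl9 had 7.32, 7.26 and 8.01 in Col4a3-/-OPN-/- hearts against 7.98, 8.19 and 7.97 in wild type hearts. Col4a3-/-OPN-/- hearts 1 and 2 were low and heart 3 was among the wild type hearts (SE 0.23, unadjusted p 0.0445). Rpl10a, which forms the movable stalk beside the exit site, had 7.97, 8.62 and 8.56 in Col4a3-/-OPN-/- hearts against 8.85, 8.73 and 8.49 in wild type hearts, with overlap and an unadjusted p of 0.162.

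Among the 54 tested members, those with the smallest SD over all 9 hearts were Rpl4, Rps29, Rpl22, Rps14 and Rps25. In the 4 pairs of a subunit gene and its like-named paralog that were both tested, Rpl7 and Rpl7l1 differed by 0.50 and −0.12 in Col4a3-/- minus wild type hearts, Rpl3 and Rpl3l by 0.57 and −0.20, Rps4x and Rps4l by 0.34 and 0.03, and Rps27 and Rps27l by 0.30 and 0.07. With these probe sets the paralog had the smaller or negative difference in each pair. A dimmer tested probe set of Rpl3 gave −0.20, level with Rpl3l, so that pair depends on the probe set. Rpl6l, the other tested paralog, was at 0.22, and Rpl6 was not tested. The difference between the members of a pair was not tested.

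Several probe sets were available for 23 members, with more than 1 tested for 15. The signs disagreed in 1 of these genes for Col4a3-/- minus wild type (Rpl3), in 2 for Col4a3-/-OPN-/- minus Col4a3-/- (Rpl29 and Rpl3) and in 4 for Col4a3-/-OPN-/- minus wild type (Rpl29, Rpl35, Rpl7a and Rpsa). For Rpl29 the bright probe set differed by −0.35 and a dimmer one by 1.23 in Col4a3-/-OPN-/- minus Col4a3-/- hearts. For Rpl35 a second tested probe set gave 0.36 in Col4a3-/- minus wild type hearts, beside 0.31 for the one used.

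Other parts of the translation machinery were set beside the members. Of 6 further ribosomal components, 3 were tested: Fau, which codes for a small subunit protein joined to a ubiquitin-like one, and Rplp0 and Rplp1 of the large subunit stalk. Fau had 9.63, 9.69 and 9.73 in Col4a3-/-OPN-/- hearts, 10.16, 9.92 and 10.22 in Col4a3-/- hearts, and 9.72, 9.81 and 9.64 in wild type hearts. All 3 Col4a3-/- hearts were above all other hearts in Fau. It differed by 0.38 for Col4a3-/- minus wild type (adjusted p 0.458) and by −0.42 for Col4a3-/-OPN-/- minus Col4a3-/- (adjusted p 0.197, limma). Rplp0 differed by 0.29 and −0.18, and Rplp1 by 0.20 and −0.36, in these 2 comparisons.

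The 10 elongation factors, which drive the ribosome along the messenger, had a median difference of 0.02 for Col4a3-/- minus wild type and −0.07 for Col4a3-/-OPN-/- minus Col4a3-/-, and 0 of 10 were at an unadjusted p under 0.05 in either. Eef2, which moves the ribosome by 1 codon, differed by 0.16 in the first. Of 42 initiation factors 37 were tested, with medians of 0.11 and −0.09. In the first comparison 29 of 37 were above 0 (45% of all tested probe sets were). None of the 37 was at an unadjusted p under 0.05 in the first. In the second the cap-binding factor Eif4e3 (0.29) was higher and Eif3i (−0.35) lower, against 8.58% higher and 5.03% lower of all tested probe sets.

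Of 56 genes for the synthesis and processing of ribosomal RNA, 53 were tested, and their medians were 0.02 for Col4a3-/- minus wild type and 0.04 for Col4a3-/-OPN-/- minus Col4a3-/-. In the first, 2 of the 53 were higher at an unadjusted p under 0.05 (Utp18 by 0.54 and Nop10 by 0.29). Another 3 were lower, among them Taf1a, a factor for RNA polymerase I (−0.59), and Dkc1, which modifies ribosomal RNA (−0.49). Of all tested probe sets 2.39% were higher and 5.96% lower, so these counts were near the background. In the second, 3 of the 53 were higher, among them Taf1a (0.42) and Polr1a, the largest subunit of RNA polymerase I (0.40). Nop10 was lower (−0.26). Of all tested probe sets 8.58% were higher and 5.03% lower, so these counts did not exceed the background. Of 21 genes that control ribosome synthesis with growth, 18 were tested, with medians of −0.08 and 0.14. At an unadjusted p under 0.05 (limma) they held 1 gene in the first comparison and 2 in the second. Of all tested probe sets 8.35% and 13.6% were at that limit. The S6 kinase gene Rps6kb2 was lower in Col4a3-/- than in wild type hearts (−0.37, unadjusted p 0.0373) and was higher with osteopontin lost as well (Col4a3-/-OPN-/- minus Col4a3-/- 0.50, unadjusted p 0.00826). Of 20 genes of ribosome stress and quality control, 16 were tested, with medians of 0.01 and 0.03. No gene of these lists had an adjusted p under 0.05 in any of the 3 comparisons (limma).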

How the data were processed

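Transcripts of 9 mouse hearts were measured on 1 array each. The deposited log2 signals were made by RMA, per the submitters' processing notes; no version is given in the sources used here. Per the labels, labelling used a small RNA kit, although the platform's probe sets are those of whole transcripts, so the labelling step is uncertain.

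Of 33793 probe sets, 23521 had 1 symbol. Those with a mean above 5.21 (13650) entered 1 limma fit (lmFit, eBayes with trend; limma 3.58.1, R 4.3.3) on all 9 arrays by genotype, with two-sided p-values adjusted by Benjamini-Hochberg over all of them at 0.05. The fit was tested on simulated data. The number of arrays limits the precision. With 3 hearts a genotype no exact permutation p goes below 0.1, so none was run. The p-values set each difference against the spread within genotypes, shared over the 3 genotypes and moderated over all tested probe sets. In both mutant genotypes that spread includes differences between hearts with high and low Xist. The members and gene lists were chosen with earlier results of these data known. Members named are those with the highest, lowest and smallest-p differences, extreme SD or mean, those below the limit, paralog pairs and X-linked members; Rpl35, Rpsa, Rps20 and Rpl6l were named after their values were seen, as were Nop10 and Polr1a. In the lists, the highest and lowest genes are named. Promoter windows are RefSeq's (GRCm38.p6). Alternatives were other normalizations (quantile, centring, cyclic loess), filters, moderation, array weights, all probe sets, only the arrays compared, replicate block, Y-linked covariate, core members, probe sets with several symbols, hearts with low Xist, and each array left out. Cyclic loess, core members, probe sets with several symbols and hearts with low Xist were chosen after seeing the data. The replicate numbers did not pair the hearts: same-numbered deviations correlated at −0.194 to 0.23.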

Additional observations from a re-analysis of the deposited data

How the results depend on the processing

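The median differences of the members kept their sign under every alternative run. Without 1 heart each, the median was 0.11 to 0.30 for Col4a3-/- minus wild type, −0.35 to −0.21 for Col4a3-/-OPN-/- minus Col4a3-/- and −0.11 to −0.01 for Col4a3-/-OPN-/- minus wild type. In hearts with low Xist, where the lone Col4a3-/- heart is assumed to vary like the other groups, the first was 0.00974 and the second −0.10, and with the Y-linked covariate the first was 0.059. Counts at an unadjusted p under 0.05 moved more. For these alternatives the share over all tested probe sets is not given, so the counts have no background to be read against. For Col4a3-/- minus wild type (14) they were 6 with array weights, 27 with all member probe sets, 6 with the Y-linked covariate and 5 in hearts with low Xist, and 6 to 25 without 1 heart. For Col4a3-/-OPN-/- minus Col4a3-/- (23 of 54) they were 14 with centred arrays, 11 with array weights and 13 with the Y-linked covariate. Without 1 heart they were 11 to 37, and 41 of the 81 member probe sets were at this limit. Some probe sets of the same gene carry nearly the same values, as for Rps12, Rps19 and Rpl23a. Counts over probe sets thus hold some readings several times. For Col4a3-/-OPN-/- minus wild type (4) they were 8 with array weights and 1 with probe sets of several symbols, and 1 to 6 without 1 heart. Members at an adjusted p under 0.05 numbered 0, and 0 to 1 without 1 heart for the first comparison (Rps13 without wild type heart 1) and for the second (Rps13 without wild type heart 1, Rpl3 without Col4a3-/-OPN-/- heart 3); the second had 1 (Rps13) with only the arrays compared. Probe sets of several symbols had 1 in the second and 1 in the third comparison. Rpl9 in Col4a3-/-OPN-/- minus Col4a3-/- was 0.0288 in hearts with low Xist, against −0.52 in all. The causes were not tested. With the replicate block the 3 counts were 11, 19 and 4, with 0 members called; the numbers pair no hearts. Signal over background limits the 12 dim members and Rps13.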

Other observations

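Probe sets annotated with several symbols were left out of the members, but 56 of them carry at least 1 ribosomal protein symbol, mostly beside pseudogenes or predicted genes, and 52 were tested. They name no gene. Their median differences were 0.18 for Col4a3-/- minus wild type, −0.27 for Col4a3-/-OPN-/- minus Col4a3-/- and −0.09 for Col4a3-/-OPN-/- minus wild type. At an unadjusted p under 0.05, 12 of the 52 were higher in Col4a3-/- than in wild type hearts and 0 lower, against 2.39% higher and 5.96% lower of all tested probe sets with 1 symbol. In Col4a3-/-OPN-/- against Col4a3-/- hearts 22 were lower and 0 higher, against 5.03% lower and 8.58% higher.

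One of these, probe set 17503531, annotated with Rps13, a pseudogene of it and a predicted gene, ran against the Rps13 member. Its signal was 5.10, 4.89 and 5.48 in Col4a3-/-OPN-/- hearts, 9.53, 8.92 and 9.73 in Col4a3-/- hearts, and 9.08, 8.26 and 8.51 in wild type hearts. All Col4a3-/-OPN-/- hearts were near the level of dim probe sets and all other hearts were far above. The fitted log2 difference was −4.23 for Col4a3-/-OPN-/- minus Col4a3-/- (adjusted p 7.42e-05) and −3.46 for Col4a3-/-OPN-/- minus wild type (adjusted p 0.000596, limma), and since the low values are at the level of dim probe sets, these give the direction but not the size. Which transcript it reads was not tested.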
